A study of Mus musculus with 18 samples.

Results

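Primordial germ cells taken from mouse embryos and primordial germ cell-like cells (PGCLCs) made in vitro were compared after culture with cyclosporin A (CsA). The comparison rests on 4 of the 18 libraries of the series, chosen by their titles: 2 libraries titled E9.5c5+CsA and 2 titled d4c7+CsA. Every gene of the deposited tables was read, and 9561 of the 34896 listed genes were expressed highly enough to be tested. The question set by this pairing is which transcripts still separate embryonic germ cells from their in vitro counterpart in the same medium.

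The embryo-derived cells were primordial germ cells from E9.5 embryos of the strain B6D2F1 x C57BL/6, which carried a Stella-EGFP reporter. After 5 days in culture, EGFP-positive cells were sorted. The PGCLCs came from B6D2F1 embryonic stem cells carrying 2 reporters, Blimp1-mVenus and Stella-ECFP. They were sorted on day 4 of induction, cultured for 7 days and sorted again for mVenus. Both kinds of cell grew on m220-5 feeder cells with stem cell factor, and the 4 corresponding libraries in FR10 (forskolin at 10 µM and rolipram, agents that raise cAMP) served as a second pairing. The labels call the replicates of the cultured groups biological. They do not state whether forskolin and rolipram were also present in the CsA cultures, and the dose of CsA is not given in the sources used here. Source, strain, reporter, sorted colour and days in culture all change together between E9.5c5 and d4c7, so their contributions cannot be told apart. In bulk libraries, fewer cells of a type and less RNA per cell cannot be told apart either.

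Primordial germ cells are the precursors of sperm and eggs. They are set apart in the epiblast by BMP signalling and the transcription factors Blimp1 (encoded by Prdm1), Prdm14 and Tfap2c, keep a pluripotency network while they migrate, and switch on later germ cell genes such as Dazl and Ddx4 as they reach the gonads. PGCLCs follow the early part of this course in a dish. CsA binds cyclophilins, and the complex inhibits calcineurin, the phosphatase that activates NFAT transcription factors.

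Expression was measured by SC3-seq, which sequences the 3' ends of transcripts, from 1 ng of RNA. Values are RPM, read numbers scaled to a common library total. The depth inferred from the smallest step between values was 3319171 and 5304523 reads for the E9.5c5 libraries in CsA and 3455369 and 3309527 for the d4c7 libraries. A count of 3 reads was worth between 0.566 and 0.906 RPM in these libraries. The sorted cells had the RNA of germ cells. The summed RPM of 9 germ cell markers was 4492 and 2735 in E9.5c5 and 2266 and 2541 in d4c7, and none of the 9 was at 0 in any of the 4 libraries. Most of this sum was Dppa3 (Stella), the reporter gene of the E9.5c5 sort, and the other 8 markers summed to 801 and 386 RPM in E9.5c5 and to 712 and 921 RPM in d4c7. Markers of other cell types were low, except for Pax6 in the neural list. Summed over 10 genes, feeder and fibroblast markers came to 64.5 and 13.8 RPM in E9.5c5 and to 135 and 29.9 RPM in d4c7, with Lum, Pdgfra and Thy1 at 0 in all 4. Of these markers, Dcn stood at 27.7 and 5.47 RPM in E9.5c5 and at 47.5 and 10.6 RPM in d4c7. Col3a1 stood at 22.0 and 2.83 RPM against 40.8 and 13.9 RPM. Gut endoderm, mesenchyme and blood or endothelium markers each summed to at most 3.76 RPM per library, with Sox17, Foxa1, Osr1 and Gata1 among those at 0 in all 4. The neural list summed to between 41.1 and 86.8 RPM, with Sox1 at 0. Most of this sum was Pax6, at 74.7 and 37.1 RPM in E9.5c5 and at 74.1 and 67.7 RPM in d4c7.

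The E9.5c5 replicates in CsA lay far apart. Over the tested genes their median absolute log2 difference was 0.60, the largest of any replicate pair in the series, against 0.29 for the d4c7 pair. E9.5c5 replicate 1 was closer to both PGCLC libraries (0.35 and 0.31) than to its own replicate. The nearest library to it among the 8 compared was also embryo-derived, E9.5c5 FR10 replicate 1, at 0.30. E9.5c5 replicate 2 stood at 0.57 and 0.56 from the PGCLC libraries, and its nearest library among the 8 compared was E9.5c5 FR10 replicate 2, at 0.46. At equal read number, 11875 genes were detected in E9.5c5 replicate 2, the fewest of all 18 libraries, against 12732 to 12996 in the other 3 CsA libraries. Values are therefore given for each library, and list medians also for each E9.5c5 library alone where these differ in sign.

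**Figure D1:**
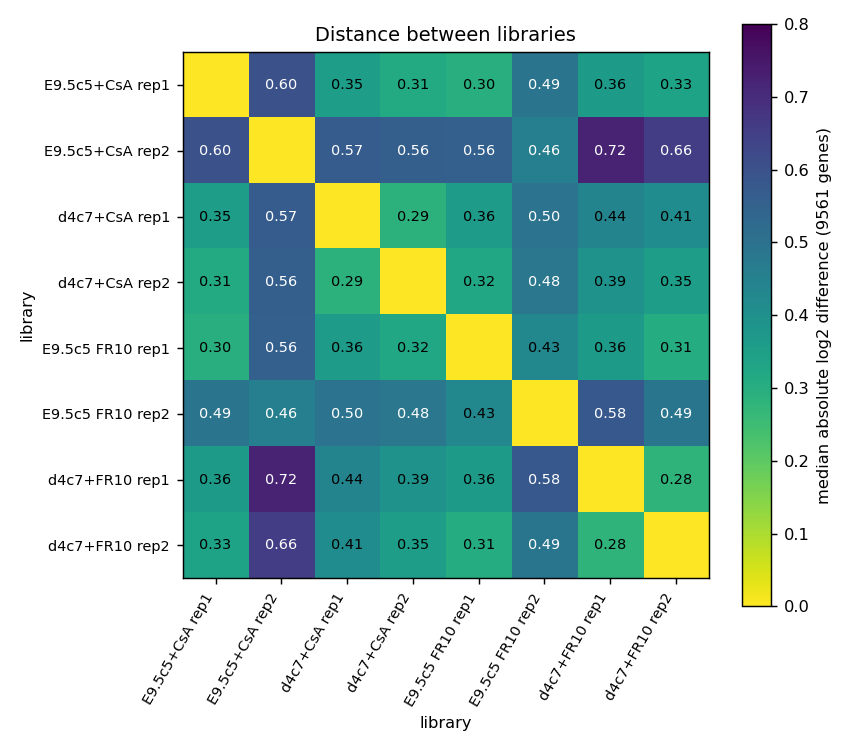
Median absolute log2 difference of log2(RPM + 1) between each pair of the 8 libraries, over the 9561 tested genes; darker squares are further apart and the diagonal is 0. E9.5c5+CsA replicate 2 is 0.46 or more from each of the other libraries. E9.5c5+CsA replicate 1 is 0.31 and 0.35 from the d4c7+CsA pair and 0.30 from E9.5c5 FR10 replicate 1.

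One gene, Gdf3, passed the test in CsA. Gdf3 encodes a TGF-beta family ligand of pluripotent cells and lies on chromosome 6 (122605403 to 122610087, mm10). It stood at 355 and 370 RPM in the E9.5c5 libraries and at 129 and 134 RPM in the d4c7 libraries. The groups did not overlap and both replicate pairs were close together. Gdf3 was higher in embryo-derived cells by 1.45 ± 0.20 on the log2(RPM + 1) scale (SE, 2 libraries per group, limma adjusted p = 0.0116). It was the only call among 9561 genes, 0.0105% of them. At an unadjusted p under 0.05 there were 1054 genes, 442 higher and 612 lower in embryo-derived cells.

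In FR10, in 4 libraries that the CsA comparison does not use, Gdf3 stood at 294 and 358 RPM in E9.5c5 and at 105 and 122 RPM in d4c7. It was higher there in E9.5c5 by 1.51 ± 0.20 (limma adjusted p = 0.00716). The embryo minus PGCLC difference in CsA minus that in FR10 was -0.05 ± 0.28. The call in CsA rests on a spread shared over all 18 libraries. With only the 12 cultured libraries its limma adjusted p was 0.184, with the 8 libraries in CsA and FR10 0.382, with the 4 CsA libraries alone 0.946, and with library weights 0.174. It was also lost on leaving out d4c7+CsA replicate 1 (0.194) or replicate 2 (0.185), while the log2 difference stayed between 1.395 and 1.517 in all 16 alternatives.

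Gdf3 sits in a cluster of germ cell and pluripotency genes, so its neighbours were read as well. Dppa3, also called Stella, follows it on the same chromosome (122626424 to 122630271) and encodes a protein that shields DNA from demethylation in the early embryo. Dppa3 stood at 3691 and 2349 RPM in E9.5c5 and at 1554 and 1620 RPM in d4c7. Both embryo libraries were above both PGCLC libraries. The difference of 0.89 ± 0.24 did not pass the test (limma adjusted p = 0.24). Since E9.5c5 cells were sorted on a Stella reporter, the level of Dppa3 is not independent of the sort. Gdf3 lies beside Dppa3, and for it too reporter and sort change together with source, so their parts cannot be told apart.

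The other neighbours differed among themselves. Nanog, the pluripotency factor next to Dppa3, stood at 116 and 40.2 RPM in E9.5c5 and at 60.5 and 114 RPM in d4c7, so the groups overlapped. Slc2a3, a glucose transporter, stood at 453 and 380 RPM in E9.5c5 and at 585 and 593 RPM in d4c7. Mfap5 and Apobec1, on the other side of Gdf3, were at low levels. Mfap5, a microfibril protein, stood at 9.94 and 10.2 RPM in E9.5c5 and at 3.76 and 0.906 RPM in d4c7, without overlap. Apobec1, an RNA-editing deaminase, was too low to be tested, at 3.31 and 10.6 RPM against 3.47 and 2.12 RPM. Rimklb stood at 132 and 81.1 RPM in E9.5c5 and at 87.1 and 78.6 RPM in d4c7. Slc2a3 differed by -0.50 ± 0.20, Rimklb by 0.32 ± 0.29 and Nanog by -0.27 ± 0.49, and none was called.

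**Figure D2:**
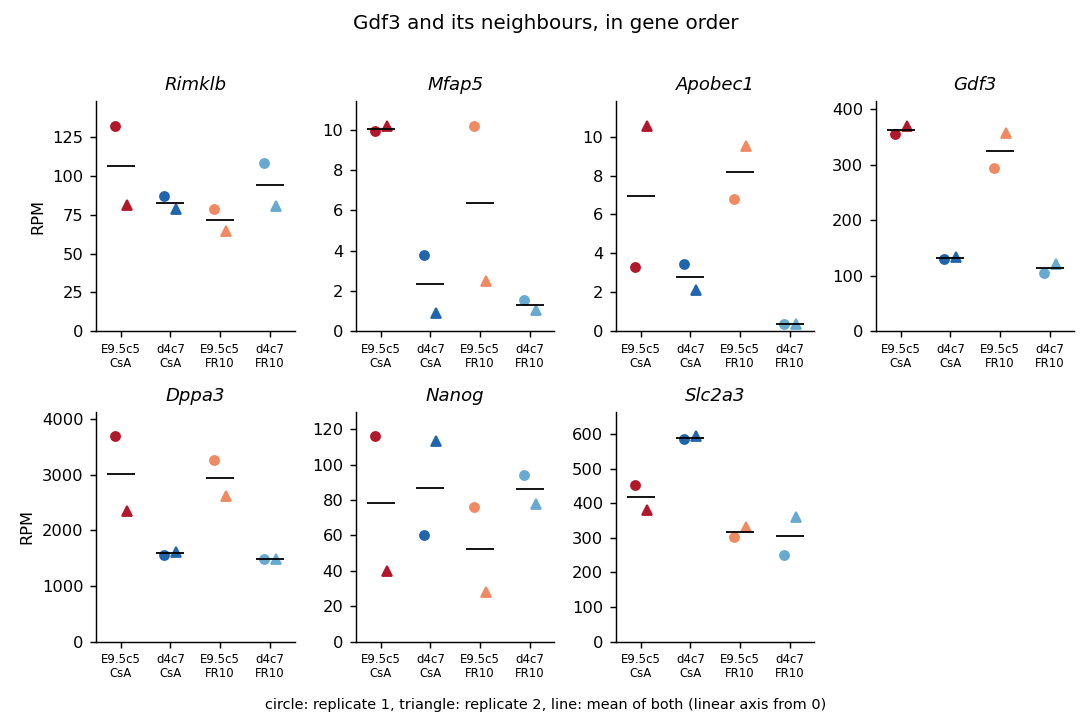
RPM of Gdf3 and 6 neighbouring genes in their order on chromosome 6, in the 8 libraries of the CsA and FR10 groups; circles are replicate 1, triangles replicate 2 and lines the mean of both. Gdf3 and Dppa3 are higher in every E9.5c5 library than in any d4c7 library, whereas Nanog overlaps between the sources in CsA.

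No gene that specifies germ cells was called in CsA. Of 13 tested early germ cell genes, 8 had a difference above 0 and 5 below, and the median was 0.19 against -0.07 over all tested genes. For E9.5c5 replicates 1 and 2 taken singly it was 0.36 and -0.13. Prdm14 stood at 54.2 and 42.6 RPM in E9.5c5 and at 57.0 and 78.0 RPM in d4c7. Tfap2c stood at 62.7 and 54.7 RPM against 66.3 and 73.7 RPM. Nanos3, which protects germ cells from apoptosis, stood at 26.8 and 20.9 RPM against 24.9 and 23.0 RPM. For Tfap2c the difference of -0.25 had a 95% interval of -0.80 to 0.29, and for Nanos3 the difference of -0.01 had one of -0.81 to 0.79, both within 2-fold. These intervals use the spread shared over all 18 libraries, and over the tested genes the E9.5c5 pair in CsA lay further apart than that. Prdm1 stood at 53.03 and 28.7 RPM in E9.5c5 and at 63.4 and 62.5 RPM in d4c7. Both embryo libraries were below both PGCLC libraries in CsA for Prdm1, Prdm14 and Tfap2c. Of the 13 genes 4 were below and 4 above in this way, against 16.6% and 16.2% of all tested genes. With the FR10 libraries added, the sources stayed apart for Prdm1 and overlapped for Prdm14 and Tfap2c. Prdm1 encodes Blimp1, and d4c7 cells were sorted on a Blimp1 reporter, so the level of Prdm1 is not independent of the sort. Ifitm3, an interferon-induced membrane protein long used as an early germ cell marker, differed by -0.70 ± 0.25 (limma adjusted p = 0.35).

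Kit, the receptor for stem cell factor, was not called in either medium or in the difference between them. In CsA it stood at 121 and 73.0 RPM in E9.5c5 and at 71.8 and 89.4 RPM in d4c7, so the groups overlapped. In FR10 it stood at 109 and 103 RPM in E9.5c5 but at 230 and 182 RPM in d4c7. The embryo minus PGCLC difference was 0.22 ± 0.25 in CsA and -0.94 ± 0.25 in FR10, and the difference of both was 1.17 ± 0.35 (limma adjusted p = 0.677, unadjusted 0.00405).

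No gene of the pluripotency list, which does not hold Gdf3, was called in CsA. Pou5f1 stood at 391 and 521 RPM in E9.5c5 and at 314 and 328 RPM in d4c7, a difference of 0.49 ± 0.20 (limma adjusted p = 0.39). Sox2 stood at 356 and 207 RPM against 246 and 257 RPM. Utf1, a chromatin factor of pluripotent and germ cells, stood at 436 and 624 RPM against 375 and 374 RPM. Over the 19 tested pluripotency genes the median difference was -0.11, and for E9.5c5 replicates 1 and 2 taken singly it was 0.08 and -0.29. Of the formative and primed epiblast genes, Otx2 stood at 2.11 and 0.754 RPM in E9.5c5 and at 4.63 and 3.32 RPM in d4c7, and Pim2 at 9.34 and 10.9 RPM against 4.05 and 5.74 RPM. Neither was called in CsA.

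**Figure D3:**
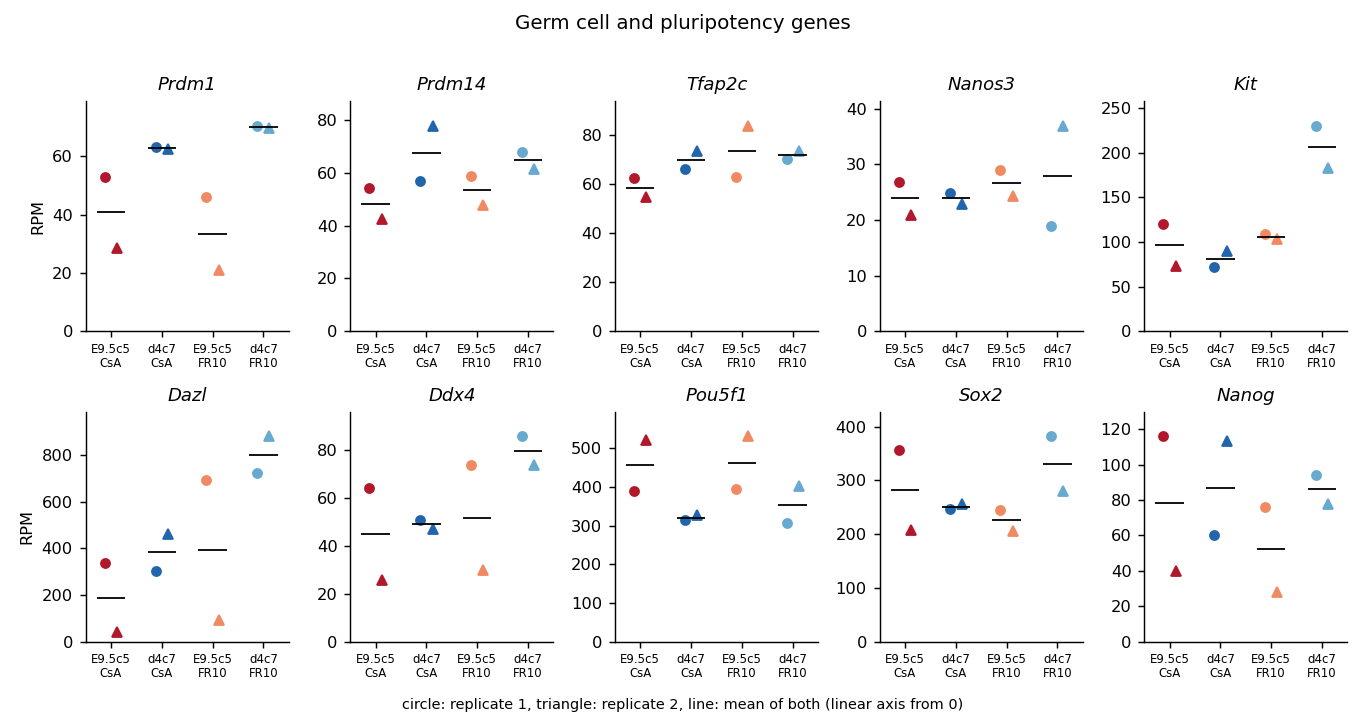
RPM of 10 germ cell and pluripotency genes in the 8 libraries of the CsA and FR10 groups; circles are replicate 1, triangles replicate 2 and lines the mean of both, on linear axes from 0. Dazl and Ddx4 are lower in replicate 2 than in replicate 1 of both E9.5c5 groups, and Kit is highest in d4c7 in FR10.

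Later germ cell genes were among those that differed between the E9.5c5 replicates. Dazl, an RNA-binding protein that licenses germ cells for gamete development, stood at 339 RPM in E9.5c5 replicate 1 and at 40.0 RPM in replicate 2, against 304 and 462 RPM in d4c7. The first value lies within the PGCLC range and the second is well below it. Mael, a piRNA pathway protein, stood at 20.5 and 0 RPM in E9.5c5 and at 22.3 and 23.6 RPM in d4c7. Ddx4, the germ cell RNA helicase, stood at 63.9 and 25.6 RPM against 50.6 and 47.1 RPM. Of 15 tested later germ cell and piRNA genes, 13 were lower in replicate 2 than in replicate 1 of E9.5c5 in CsA, with a median of -1.06 between them. The same held for 14 of the 15 in E9.5c5 FR10, with a median of -1.07, where Dazl stood at 694 and 93.7 RPM. Over all tested genes, these medians were -0.32 in CsA and -0.07 in FR10. In CsA, genes of the endoplasmic reticulum (-0.998, 14 of 16 lower) and feeder genes (-1.14, 11 of 13 lower) were also lower in replicate 2, as were 6182 of all 9561 tested genes. In d4c7 in CsA 7 of the 15 later germ cell genes were lower in replicate 2. Against the PGCLC mean the list median was 0.27 for E9.5c5 replicate 1 and -0.45 for replicate 2, so no direction holds for both libraries. The part of depth and detected gene number in this split was not tested. Meiotic genes were mixed, with 6 of 11 above 0 and 5 below. Syce1, a component of the synaptonemal complex, stood at 14.2 and 0.377 RPM in E9.5c5 and at 16.2 and 7.86 RPM in d4c7.

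Genes of the germ cell epigenetic programme were also uncalled in CsA. Uhrf1, which guides maintenance DNA methylation, stood at 2.64 RPM or less in E9.5c5 and at 2.60 and 5.74 RPM in d4c7. Dnmt3b stood at 9.94 and 11.1 RPM against 9.55 and 19.9 RPM. Dnmt3l, the cofactor of the de novo methyltransferases, stood at 5.12 and 0.189 RPM in E9.5c5 and at 8.97 and 10.3 RPM in d4c7, a difference of -1.97 ± 0.58 (limma adjusted p = 0.26). Ezh2, the Polycomb methyltransferase, stood at 173 and 51.8 RPM against 187 and 165 RPM. Xist, the RNA that coats the inactive X chromosome, was at 1.45 RPM or less in all 4 libraries, and the Y-linked genes on the list were not analysed here. The 337 tested X-linked genes had a median difference of 0.11, against -0.08 for 9167 autosomal genes.

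Among imprinted genes, Phlda2, a growth-limiting gene expressed from the maternal allele, stood at 104 and 118 RPM in E9.5c5 and at 62.5 and 48.9 RPM in d4c7. The groups did not overlap. The difference in CsA was 0.99 ± 0.24 (limma adjusted p = 0.21). H19, a maternally expressed noncoding RNA, stood at 44.0 and 22.6 RPM in E9.5c5 and at 65.4 and 103 RPM in d4c7, the opposite order. Of 16 tested imprinted genes 7 were above 0 and 9 below.

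No member of the signalling lists, which do not hold Gdf3, was called in CsA. Of the 16 tested FGF and MAPK response genes, 4 were higher and 2 lower in E9.5c5 without overlap, against 16.2% and 16.6% of all tested genes. Spry1, a feedback inhibitor of FGF receptor signalling, stood at 23.8 and 23.2 RPM in E9.5c5 and at 3.76 and 9.06 RPM in d4c7 in CsA. In FR10 it stood at 27.2 and 17.3 RPM in E9.5c5 and at 22.8 and 18.6 RPM in d4c7. The d4c7 libraries in CsA were thus the low ones. The difference was 1.82 ± 0.43 in CsA (limma adjusted p = 0.18) and 0.07 ± 0.43 in FR10, and the difference of both was 1.75 ± 0.61 (limma adjusted p = 0.728, unadjusted 0.0110). Over the 16 tested FGF and MAPK response genes the median was 0.31 in CsA and -0.20 in FR10, with none called in CsA. Ccnd1, the cyclin induced by growth factors, stood at 1.21 and 0.566 RPM against 5.50 and 3.02 RPM.

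Lefty2, an inhibitor and target of Nodal signalling, stood at 17.5 and 20.4 RPM in E9.5c5 and at 10.1 and 5.44 RPM in d4c7. Tdgf1, the Nodal co-receptor Cripto, stood at 41.9 and 7.16 RPM against 34.7 and 67.7 RPM. The 11 tested Nodal and activin genes had a median of 0.00. All 4 tested retinoic acid genes were above 0, with a median of 1.10. Crabp1, a retinoic acid carrier, stood at 33.4 and 43.7 RPM in E9.5c5 and at 26.0 and 14.2 RPM in d4c7. Evx1, a BMP-responsive homeobox gene, stood at 4.52 and 1.13 RPM in E9.5c5 and was listed at 0 in both d4c7 libraries.

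The list of calcineurin, NFAT and cyclophilin genes had 6 members above 0 and 9 below, with a median of -0.06 and none called. For E9.5c5 replicates 1 and 2 taken singly the median was 0.16 and -0.35. The list also holds Rcan genes and Fkbp1a, so not every member is a target of CsA itself. Rcan1, a calcineurin inhibitor whose own transcription is driven by NFAT, stood at 58.7 and 32.8 RPM in E9.5c5 and at 77.8 and 73.7 RPM in d4c7. It differed by -0.77 ± 0.28 in CsA (limma adjusted p = 0.35) and by 0.06 ± 0.28 in FR10. Of the cAMP genes, Sik1, a kinase induced by CREB, stood at 2.41 and 3.58 RPM against 9.26 and 11.8 RPM, a difference of -1.53 ± 0.52 (limma adjusted p = 0.33).

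Among genes of the endoplasmic reticulum, 14 of 16 were below 0 in CsA with a median of -0.45, and none was called. In CsA, 5 of the 16 were below and 1 above without overlap, against 16.6% and 16.2% of all tested genes. The list median within CsA rested on E9.5c5 replicate 2. Taken singly against the PGCLC mean, replicate 1 had a median of 0.02 and replicate 2 one of -0.90. In the FR10 libraries 14 of the 16 were also below 0, with a median of -0.47. Of all 9561 tested genes, 5337 were below 0 in CsA and 6189 in FR10. Hspa5, the chaperone BiP, stood at 679 and 274 RPM in E9.5c5 and at 660 and 697 RPM in d4c7. Hsp90b1, its partner in the same compartment, stood at 826 and 723 RPM against 848 and 918 RPM. Sec61b, a subunit of the translocation channel, was low in both embryo libraries, at 917 and 767 RPM against 1481 and 1276 RPM (-0.71 ± 0.17, limma adjusted p = 0.20). Dnajc3 stood at 43.7 and 25.1 RPM against 67.1 and 62.5 RPM.

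Energy metabolism gave opposite medians in the media. Of 22 tested oxidative phosphorylation genes, 19 were below 0 in CsA and 6 in FR10, with medians of -0.21 and 0.23. The medians over all tested genes were -0.07 and -0.20, and no member was called in CsA. Atp5j, a subunit of ATP synthase, stood at 486 and 451 RPM in E9.5c5 and at 793 and 732 RPM in d4c7 in CsA, a difference of -0.70 ± 0.19 (limma adjusted p = 0.23), and differed by 0.02 ± 0.19 in FR10. For E9.5c5 replicate 1 alone the CsA median was -0.32, and for replicate 2 alone it was 0.04. Of 22 glycolysis and hypoxia genes, 15 were below 0 in CsA and 7 in FR10, with medians of -0.11 and 0.26. Tpi1, a glycolytic enzyme, stood at 26.8 and 17.3 RPM in E9.5c5 and at 43.7 and 55.9 RPM in d4c7. Bnip3, a mitochondrial protein induced by hypoxia, stood at 14.5 and 16.2 RPM against 26.6 and 32.6 RPM in CsA, and at 29.3 and 62.0 RPM against 27.5 and 20.7 RPM in FR10.

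None of the cell cycle, p53, cholesterol or feeder lists had a called member in CsA. S phase genes had a median of -0.13, G2 and M phase genes one of -0.16, and p53 and Bcl2 family genes one of -0.30. For E9.5c5 replicate 1 alone these medians were 0.07, 0.21 and 0.08, and for replicate 2 alone -0.33, -0.38 and -0.48. Hmgcs1, the first dedicated step of the mevalonate pathway, stood at 55.4 and 45.1 RPM in E9.5c5 and at 105 and 112 RPM in d4c7, while the median of 20 cholesterol synthesis genes was 0.08, and -0.12 and -0.09 for E9.5c5 replicates 1 and 2 taken singly. Gadd45a, a stress-induced p53 target, stood at 44.6 and 63.2 RPM against 33.9 and 26.9 RPM. Feeder and fibroblast genes had a median of -0.80, with 10 of 13 below 0. For E9.5c5 replicate 1 alone the median was -0.06, and for replicate 2 alone -1.43. Without d4c7 replicate 1, the library with the highest sum of feeder markers in CsA, it was 0.00. Sparc, a matrix glycoprotein, stood at 82.9 and 50.1 RPM in E9.5c5 and at 88.6 and 90.0 RPM in d4c7, and Col5a2, a fibrillar collagen, at 1.21 and 0 RPM against 4.05 and 4.23 RPM.

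**Figure D4:**
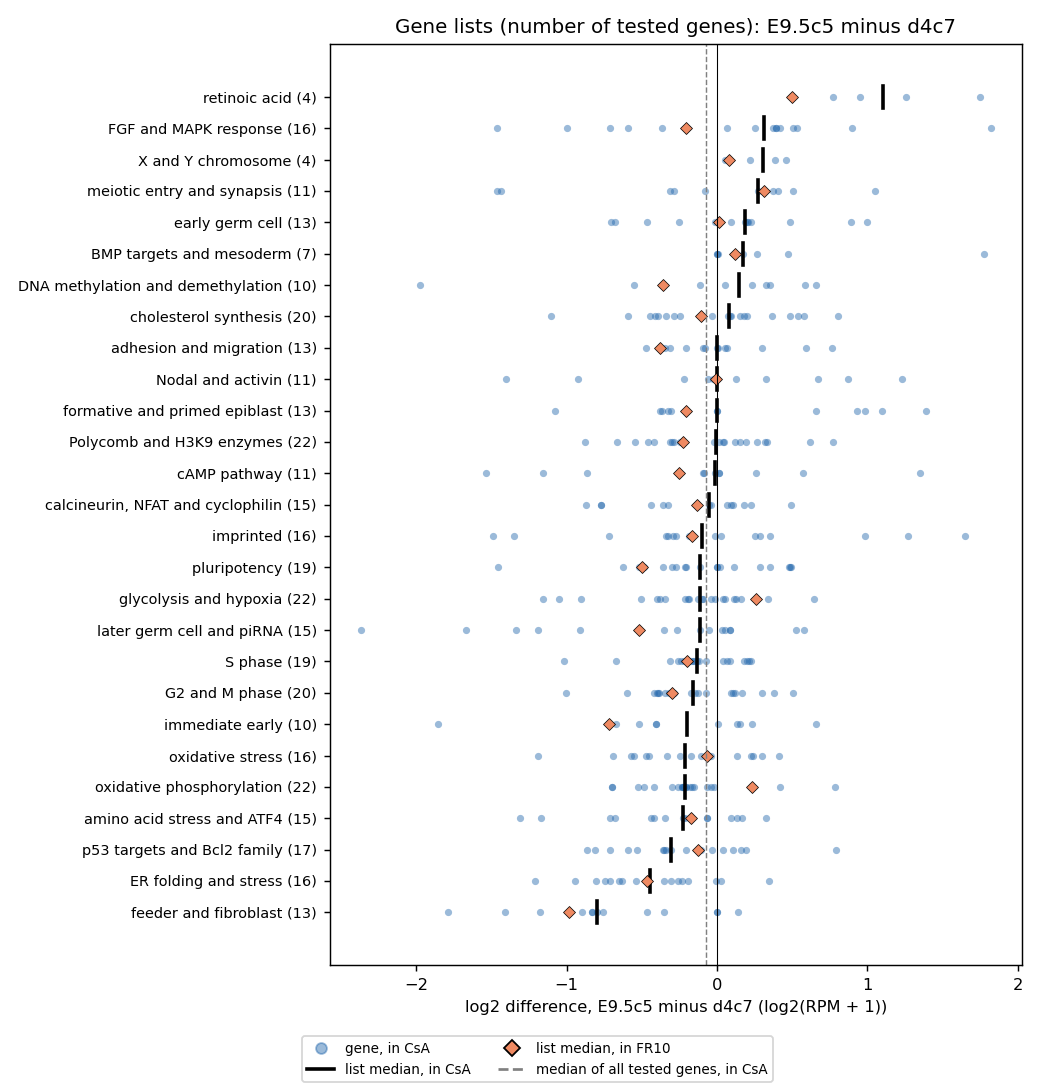
Log2 difference, E9.5c5 minus d4c7, for the gene lists with at least 4 tested genes; blue points are single genes in CsA, black bars list medians in CsA and orange diamonds list medians in FR10. The oxidative phosphorylation and glycolysis medians lie below 0 in CsA and above 0 in FR10, and the endoplasmic reticulum and feeder medians lie below 0 in both.

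Non-overlap between 2 and 2 libraries was common. Both E9.5c5 libraries were above both d4c7 libraries in CsA for 1549 genes (16.2%) and below them for 1583 (16.6%). Of the 13 early germ cell genes 4 were in each class, and of the 22 oxidative phosphorylation genes 2 were above and 7 below. The 95% interval of the difference, from the shared spread, lay within 2-fold for 3565 genes (37.3%) and within 4-fold for 8474 (88.6%). The low number of calls therefore does not show that the sources are alike at 2-fold for the other genes. Without E9.5c5+CsA replicate 2 limma called 2 genes, and without replicate 1, where replicate 2 stands alone and is assumed to vary like the other groups, it called 1379, 242 higher and 1137 lower. Without d4c7+CsA replicate 1 or replicate 2 it called 0, and with replicate 2 of d4c7+FGF2, E9.5c5 FR10 and E9.5c5+CsA left out together 24, 14 higher and 10 lower.

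The FR10 comparison had a median difference of -0.20 over all tested genes, which median-ratio scaling moved to -0.03, and that of the CsA comparison from -0.07 to -0.01. The same pairing in FR10 gave 4 calls (0.0418%), with Gdf3, Rpl29 and Phlda2 higher and Pfn1 lower in E9.5c5. Of the 1054 genes with an unadjusted p under 0.05 in CsA, 813 (77.1%) had the same sign in FR10, against 6060 of all 9561 genes (63.4%). Of those 1054 genes, 219 also had an unadjusted p under 0.05 and the same sign in FR10, which is 20.8% of the CsA set and 15.4% of the 1421 such genes in FR10, and 21 had the opposite sign. Across genes the differences in the media correlated with Pearson's r of 0.359 and Spearman's rho of 0.352, as a description, since genes are not independent replicates. No gene was called in the interaction test between the media (0 of 9561, 0%, smallest limma adjusted p = 0.677). The 95% interval of this difference lay within 2-fold for 1521 genes (15.9%) and within 4-fold for 6812 (71.3%). The absence of calls therefore does not show that the embryo minus PGCLC difference is alike in both media at 2-fold. An unadjusted p under 0.05 was found for 616 genes, and voom also called 0. Those with the smallest p included Dmtf1, Rheb and Ccdc94, with a larger embryo minus PGCLC difference in CsA, and Bop1, Mxd4 and Slc16a3, with a smaller one. Ccdc94 stood at 12.7 and 11.7 RPM in E9.5c5 and at 5.79 and 6.35 RPM in d4c7 in CsA, and at 8.17 and 5.78 RPM against 22.5 and 21.4 RPM in FR10.

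**Figure D5:**
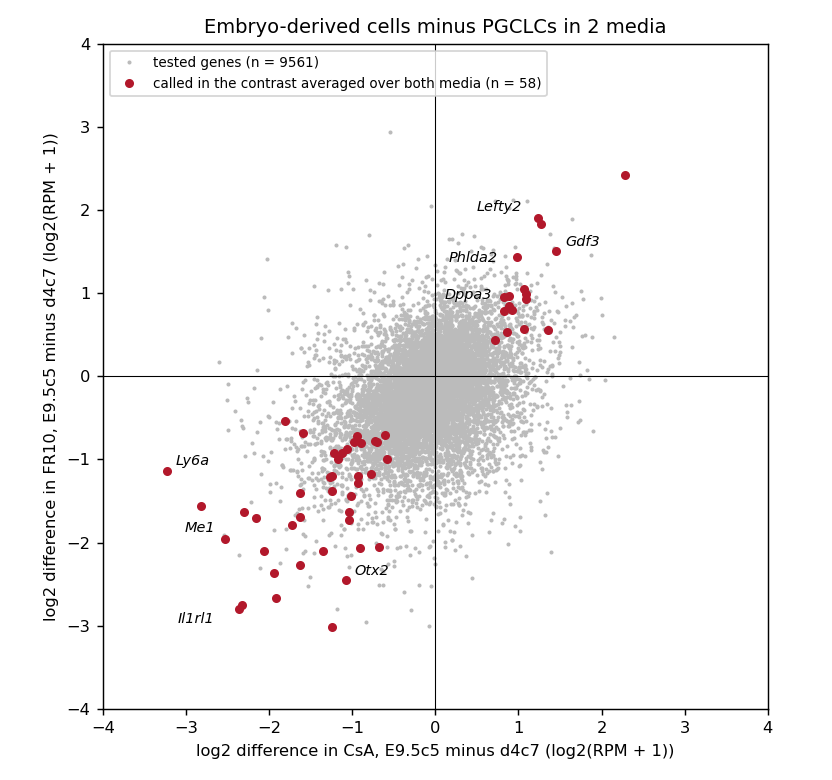
Log2 difference, E9.5c5 minus d4c7, of 9561 genes in CsA (horizontal) and in FR10 (vertical); red points are the 58 genes called in the contrast averaged over both media. All red points lie in the lower left or upper right part of the plot, and Gdf3 is called in each medium alone.

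Averaging the embryo minus PGCLC difference over both media, a contrast added after the data were seen, gave 58 calls (0.607%) with 17 higher and 41 lower in E9.5c5. With median-ratio scaling the split was 17 higher and 26 lower. All 4 embryo libraries were above all 4 PGCLC libraries for 16 of the 17, and below them for 35 of the 41. Over all tested genes these shares were 2.27% and 3.75%. The 58 genes were called from these same libraries, so their separation is no further support for the calls. The genes below were named after their values were seen, and the log2 differences given with them are those of this averaged contrast. Gdf3 was higher by 1.48 ± 0.14 (limma adjusted p = 7.29e-05) and was called in all 19 alternatives. Dppa3 was higher by 0.93 ± 0.17 (limma adjusted p = 0.0229) and was called in 10 of 19. Phlda2, at 75.2 and 108 RPM in E9.5c5 and 29.4 and 36.3 RPM in d4c7 in FR10, was higher by 1.21 ± 0.17 (limma adjusted p = 0.00478) and called in 17 of 19. Lefty2 was higher by 1.57 ± 0.29 (limma adjusted p = 0.0229) and called in 9 of 19. Otx2, an epiblast and head patterning factor, was lower by a log2 difference of -1.77 ± 0.32 (limma adjusted p = 0.0229) and called in 7 of the 17 alternatives that gave a value, with differences from -3.53 to -0.41.

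Genes outside the fixed lists made up most of these calls. Tomm34, a cytosolic cochaperone of mitochondrial import, stood at 164 and 139 RPM in E9.5c5 and at 79.0 and 80.1 RPM in d4c7 in CsA, and was higher by 0.86 ± 0.14 (limma adjusted p = 0.0124). Apoa2, an apolipoprotein, stood at 3.01 and 4.90 RPM in E9.5c5 and was listed at 0 in all 4 d4c7 libraries (limma adjusted p = 0.00478). Rpl29 and Rps4x, ribosomal protein genes, stood at 2229 and 3002 RPM against 1484 and 1436 RPM, and at 7809 and 13740 RPM against 5047 and 4663 RPM. They were higher by 0.89 ± 0.11 and 1.05 ± 0.15 (limma adjusted p = 0.00208 and 0.00478). Ribosomal protein genes have many near-identical copies that can share reads, so both are uncertain. The median of 75 tested ribosomal protein genes was 0.04 in CsA, 0.33 in FR10 and 0.18 in the averaged contrast, where that of all tested genes was -0.14. Of the 75, 7 were above and 0 below without overlap in both media, against 2.27% and 3.75% of all tested genes. In CsA alone 10 were above and 11 below without overlap, against 16.2% and 16.6% of all tested genes.

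Of the 41 genes lower in embryo-derived cells, 8 are given here. Spp1, the secreted phosphoprotein osteopontin, stood at 155 and 108 RPM in E9.5c5 and at 296 and 306 RPM in d4c7 in CsA, and differed by -1.07 ± 0.16. Pfn1, the actin-binding protein profilin, stood at 65.1 and 85.0 RPM against 132 and 154 RPM, and differed by -1.07 ± 0.14. Rasgrp2, an activator of the small GTPase Rap1, stood at 16.0 and 15.3 RPM against 48.3 and 49.6 RPM (-1.13 ± 0.19). Me1, the cytosolic malic enzyme, stood at 8.74 and 1.70 RPM against 32.4 and 25.4 RPM (-2.24 ± 0.41). Il1rl1, the interleukin-33 receptor, was listed at 0 in both E9.5c5 libraries in CsA and stood at 2.60 and 6.35 RPM in d4c7 (-2.58 ± 0.47). Socs3, a feedback inhibitor of LIF and other cytokine signalling, stood at 1.21 and 0.189 RPM against 3.76 and 9.97 RPM (-1.93 ± 0.36). Ly6a, the surface protein Sca-1, stood at 1.51 and 0.189 RPM against 26.0 and 8.76 RPM (-2.18 ± 0.43). Hesx1, a homeobox gene, stood at 2.71 and 1.70 RPM against 7.52 and 15.7 RPM (-2.29 ± 0.42). The limma adjusted p of these 8 genes ran from 0.00208 for Pfn1 to 0.0279 for Ly6a. Pfn1 was called in 17 of 19 alternatives, Spp1 in 16 and Rasgrp2 in 13, and Me1 and Il1rl1 were each called in 9 of 18. Socs3, Ly6a and Hesx1 were each called in 7 of 18.

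How many genes were called in the averaged contrast moved with single libraries. Without E9.5c5+CsA replicate 1 there were 2209 calls and without replicate 2 there were 18. Without d4c7+CsA replicate 1 or replicate 2 there were 23 or 9, without E9.5c5 FR10 replicate 1 or replicate 2 there were 517 or 9, and without d4c7+FR10 replicate 1 or replicate 2 there were 6 or 9. Of the 58 genes, 2 were called in every alternative that gave a value, Gdf3 in 19 of them and Apoa2 in 16, and all 58 kept their sign. Apoa2 is a low gene with no value in the other alternatives, which therefore say nothing about its call. Its log2 difference ran from 0.50 to 5.39 over the 16 that gave a value. A mean under 10 RPM in all 4 groups was found for 5 of the 58. In the FR10 comparison the count without E9.5c5 FR10 replicate 1 was 259, and it was 0 without E9.5c5 FR10 replicate 2, d4c7+FR10 replicate 1 or d4c7+FR10 replicate 2.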

How the data were processed

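The authors deposited 1 RPM value per gene and library, read numbers scaled to a common library total without correction for transcript length. Per the submitters' processing notes, cutadapt 1.3, TopHat 1.4.1, Cufflinks 2.2.0 and the build mm10 were used, with no role stated. For annotation, counting and strand, details were not given in the sources used here. Depth was inferred from the step between low RPM values, 99.7% to 99.8% of which were whole multiples within 0.02 read. It ran from 2129399 to 7547669 reads per library. Limits drawn from it cover counting error alone, because PCR copies cannot be told from separate molecules.

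Of 34896 genes, 46 had no value. Genes at 10 RPM or more in at least 2 of the 18 libraries were tested (9561). All 18 libraries in 9 groups entered 1 limma fit (limma 3.58.1, R 4.3.3) on log2(RPM + 1) with a mean per group, 9 residual degrees of freedom and an empirical Bayes variance trend. On this scale the change of low genes is understated. A gene was called at a Benjamini-Hochberg adjusted p under 0.05, adjusted over all tested genes, and SEs are from this fit. The E9.5c5 replicates in CsA lie further apart than the shared spread. The procedure was tested on simulated data, whose outcome is not given here and is not used to support the calls.

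The comparison, the gene lists and the naming rule were chosen with earlier results of these data known. Named genes were the called genes without overlap, up to 2 uncalled members of each list by smallest p, a fixed germ cell and stress panel, and up to 5 genes per direction of the interaction. The neighbours of Gdf3 and the genes of the averaged contrast were added after their values were seen. Lists are described by counts and medians, with no test. Gene positions are from RefSeq on GRCm38.p6, the assembly of mm10.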

Additional observations from a re-analysis of the deposited data

How the results depend on the processing

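Counts of called genes are given in the order CsA, FR10 and averaged contrast, against 1, 4 and 58. With no filter they were 2, 27 and 26, with the 12 cultured libraries 0, 0 and 2, with the 8 libraries of the CsA and FR10 groups 0, 0 and 1, and with array quality weights 0, 10 and 15. With only the groups of the contrast they were 0 in CsA and 1 in FR10. Voom on inferred reads gave 7 in CsA and 187 in the averaged contrast. Pseudocount 10 gave 9 in FR10 and 121 in the averaged contrast, pseudocount 0.1 gave 29 in the averaged contrast, and median-ratio scaling gave 2 in FR10. Leaving out replicate 2 of d4c7+FGF2, E9.5c5 FR10 and E9.5c5+CsA together gave 24 in CsA and 31 in FR10. Leaving out single libraries gave 0 to 1379 in CsA, 0 to 259 in FR10 and 6 to 2209 in the averaged contrast. The interaction had 0 calls, 1 with no filter and 0 to 6 on leaving out single libraries. The causes were not tested.

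No label ties same-numbered libraries of different groups together. Their deviations correlated at -0.02 between E9.5c5+CsA and d4c7+CsA, 0.13 between the FR10 groups, 0.34 between both E9.5c5 groups, -0.03 between both d4c7 groups, 0.15 between E9.5c5+CsA and d4c7+FR10 and -0.03 between d4c7+CsA and E9.5c5 FR10, so 3 of 6 were over 0.1 and pairing was not established. With a replicate block the counts were 1 in CsA, 8 in FR10 and 153 in the averaged contrast.

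Of the log2 differences of named genes in CsA, 17 of 974 alternative values reversed in sign, none of them of a called gene. Nanos3 was 0.047 with median-ratio scaling and 0.16 with the 3 replicate 2 libraries left out, where Ddx4 was 0.38, Nanog 0.48, Syce1 0.30 and Hspa5 0.0015. Leaving out single libraries gave -0.18 to 0.16 for Nanos3, -0.90 to 0.38 for Ddx4, -1.03 to 0.48 for Nanog, -1.30 to 0.0015 for Hspa5, -0.13 to 0.58 for Kit, -0.28 to 0.50 for Sox2, -0.86 to 0.13 for Dnmt3b and -0.029 to 0.67 for Rimklb. For Syce1 the range was -3.16 to 0.30. Values near or under 1 RPM rest on few reads, since 3 reads were worth 0.566 to 0.906 RPM.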
